A study of Homo sapiens with 5 samples.

Results

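The sites described here are the globin genes HBB, HBG1, HBG2, HBA1 and HBA2 and the genes of the globin switching regulators BCL11A and KLF1, as seen in ZBTB7A chromatin immunoprecipitation and sequencing (ChIP-seq) of VCaP cells. A peak belonged to these 7 genes if its summit, the position of highest signal, lay in 1 of 4 windows on the hg19 build. The windows were chromosome 11 from 5.20 to 5.35 Mb (HBB, HBG1, HBG2 and their control region, 150 kb), chromosome 16 from 0.10 to 0.25 Mb (HBA1, HBA2 and their enhancers, 150 kb), and the 50 kb on either side of BCL11A on chromosome 2 (203 kb in all) and of KLF1 on chromosome 19 (103 kb in all). Of 196770 peaks in 3 lists, 46 met this rule: 7 of 34120 in DHT, 27 of 124868 in FBS and 12 of 37782 in CSS. Of these genes, HBG1 and HBG2 are known targets of ZBTB7A in red cell precursors.

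VCaP is an established cell line from a prostate cancer, positive for the androgen receptor and with a TMPRSS2-ERG gene fusion. The 5 libraries fall into 3 groups: DHT (2 libraries, 10 nM of the androgen dihydrotestosterone, 4 hours, 5% hormone-depleted serum), FBS (1 library, routine culture in 10% full serum) and CSS (2 libraries, vehicle, 4 hours, 5% hormone-depleted serum). The labels attach 1 treatment text to every library, and FBS cells are taken to have had no added DHT because of their culture condition and the series' own design text. All groups are the same unmodified line, and each is represented by 1 peak list, so there is no spread between replicates, no library could be compared with another, and no test between groups was made. The 95% intervals given are exact and account for counting error alone. Read totals are not part of the lists, and depth is therefore unknown. A place without a peak is a place where none was called, and the part that depth plays in the length of the FBS list was not tested. Fold enrichment over background and the −log10 q of a peak are the authors' values and are read only against other peaks of the same list, mostly as a percentile by −log10 q in which 100 is the strongest.

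ZBTB7A, also called LRF or Pokemon, is a zinc finger repressor. In adult erythroid cells it is known to silence the fetal gamma-globin genes HBG1 and HBG2, in parallel with BCL11A, another zinc finger repressor of the same genes, while KLF1 activates the adult gene HBB and also BCL11A and ZBTB7A. HBA1 and HBA2 encode the alpha chain that pairs with both the fetal and the adult chain. Prostate cells are not known to make haemoglobin. The windows thus show where ZBTB7A was called around globin genes and their regulators in a cell type of another lineage.

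Promoters from RefSeq (GRCh38.p14) could be matched for BCL11A, which has 5, and KLF1, which has 1. The 2 most upstream BCL11A promoters are shown because peaks were called at the start of this gene, and the KLF1 promoter because none was called there. Each runs from 250 bases before to 50 bases after an annotated start, on the minus strand. Capitals mark the word GACCC or its reverse complement GGGTC, a short word associated with ZBTB7A binding, searched on both strands.

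BCL11A, most upstream start (chr2:60553875-60554174): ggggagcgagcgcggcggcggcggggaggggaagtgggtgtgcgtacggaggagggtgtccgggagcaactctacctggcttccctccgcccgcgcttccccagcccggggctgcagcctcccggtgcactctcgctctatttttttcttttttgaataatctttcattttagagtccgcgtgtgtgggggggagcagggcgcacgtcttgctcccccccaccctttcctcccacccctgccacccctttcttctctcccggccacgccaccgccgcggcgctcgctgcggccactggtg
BCL11A, next start (chr2:60553605-60553904): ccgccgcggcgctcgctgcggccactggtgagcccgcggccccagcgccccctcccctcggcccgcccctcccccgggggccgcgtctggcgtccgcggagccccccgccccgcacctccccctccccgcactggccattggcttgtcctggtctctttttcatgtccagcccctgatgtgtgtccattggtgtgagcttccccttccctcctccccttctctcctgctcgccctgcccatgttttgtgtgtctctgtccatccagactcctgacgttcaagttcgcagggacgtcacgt
KLF1 (chr19:12887152-12887451): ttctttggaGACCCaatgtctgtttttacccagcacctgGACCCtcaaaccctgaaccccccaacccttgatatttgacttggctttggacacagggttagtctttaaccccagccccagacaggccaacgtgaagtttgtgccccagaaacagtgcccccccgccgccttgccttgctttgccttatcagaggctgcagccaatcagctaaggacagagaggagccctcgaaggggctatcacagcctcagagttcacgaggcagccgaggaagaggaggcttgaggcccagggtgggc

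The word occurred at 2 places in the KLF1 promoter and at none in the 2 BCL11A promoters, which says only that these letters are not in those windows. Of the other BCL11A promoters in the table, 1 holds it at 1 place. It is present in 47.6% of the 35116 promoters of this length in the table, so its presence does not set a promoter apart. The BCL11A promoters were rich in G and C, at 67.0% and 69.3%, against 57.0% in the KLF1 promoter and a median of 58.7% over all promoters. The peaks are on hg19 and these promoters on GRCh38.p14, so the 2 sets of positions cannot be laid on each other.

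The HBB, HBG1 and HBG2 window was nearly empty of ZBTB7A peaks. It held no DHT peak, no FBS peak and 1 CSS peak, although the FBS list would place 6.11 peaks in 150 kb at its average density. The single CSS peak lay on chromosome 11 from 5265458 to 5265648. It was among the weakest of its list, with a fold enrichment of 3.98, a −log10 q of 2.53 and a rank of 33767 of 37782 (percentile 8.19). At 191 bp it had the smallest width in the CSS list to within 2 bp. No peak of DHT or FBS overlapped it, and at a −log10 q of 5 or more the window was empty in each list. A count of 0 allows up to 3.69 peaks, or 24.6 per Mb. That limit lies above the DHT list's average of 10.9 per Mb, so a lower density in DHT was not detectable from this window, and below the FBS list's average of 40.7 per Mb.

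An empty window of this size is not rare, however. The genome (chromosomes 1 to 22 and X) was divided into 20224 tiles of 150 kb, and at least 1 peak was present in 68.8% of them in DHT, 85.2% in FBS and 71.4% in CSS. Thus 31.2% of tiles held no DHT peak and 14.8% no FBS peak. Over the 3 lists together, 14.7% of tiles held at most 1 peak, as the beta-globin window did, with tiles in unsequenced stretches left in. Among the 18245 tiles with any peak at all, 989 (5.42%) held exactly 1 peak, and 94.5% held an FBS peak. Tiles with at least 1 CSS peak but no FBS peak, whatever their DHT count, numbered 850, or 5.89% of the 14440 tiles with a CSS peak. This window is of that class, but its narrower pattern, with no DHT peak either, was not counted.

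The surroundings of the beta-globin genes were also sparse in FBS. In the gene table, HBB is flanked on the lower side by olfactory receptor genes (OR51V1, OR52A1) and on the upper side by HBD, HBG1, HBG2 and the embryonic gene HBE1, followed by more olfactory receptor genes. FBS had 23 peaks in the 1 Mb below the window and 20 in the 1 Mb above, against a list average of 40.7 per Mb. DHT had 9 and 14, and CSS 12 and 15, around list averages of 10.9 and 12.1 per Mb. The nearest FBS peaks lay 191.2 kb below and 45.0 kb above the window, leaving 386.2 kb between summits, and 0.262% of the 123628 intervals between neighbouring FBS summits were longer. Because long intervals take up more of the genome, 9.52% of the length between FBS summits lay in intervals at least this long. Unsequenced stretches were left in this length, which can raise the share. In DHT the corresponding interval was 435.0 kb, 2.29% of intervals were longer, and 18.7% of the length, counted in the same way, lay in intervals at least as long. The closest peak below the window was shared by DHT (chromosome 11 from 5165795 to 5166138, fold enrichment 9.11) and CSS (5165548 to 5166105, 7.35), 34.0 and 34.3 kb outside it.

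**Figure D1:**
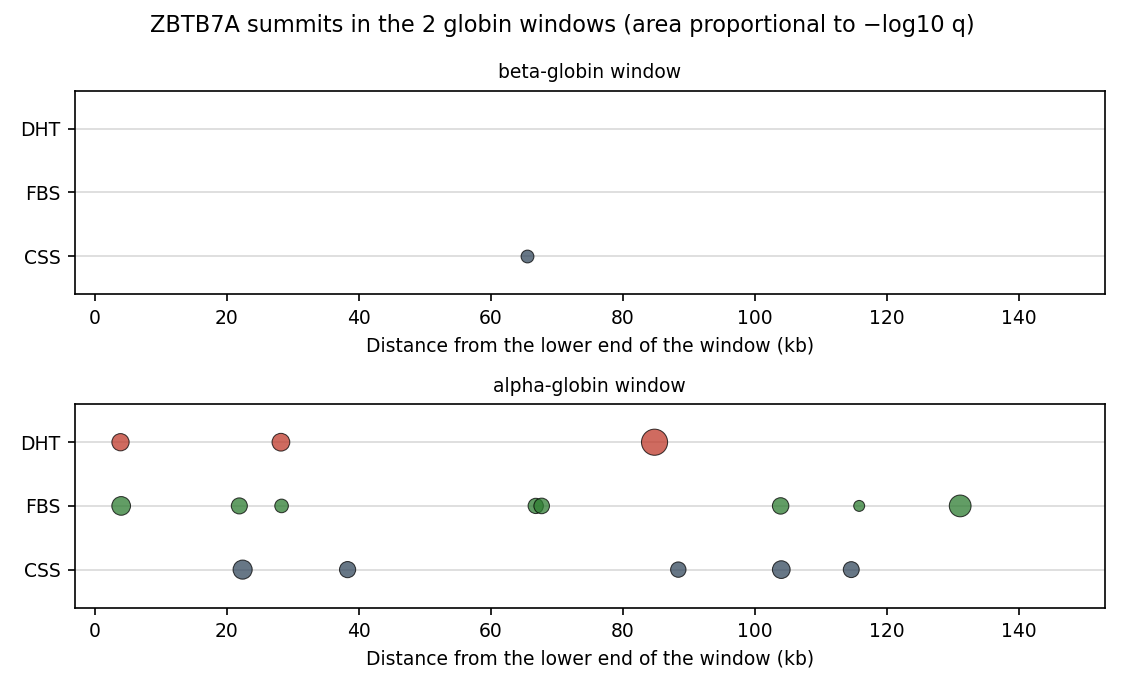
Summits of ZBTB7A peaks in the beta-globin window (top) and the alpha-globin window (bottom), as distance in kb from the lower end of the window; each circle is 1 peak and its area is proportional to the −log10 q. The beta-globin window holds 1 small CSS circle, and the alpha-globin window holds 3 DHT, 8 FBS and 5 CSS circles.

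The HBA1 and HBA2 window held peaks in every list, 3 in DHT, 8 in FBS and 5 in CSS. Densities were 20 per Mb in DHT (4.12 to 58.4), 53.3 in FBS (23.03 to 105.1) and 33.3 in CSS (10.8 to 77.8). Each interval includes the average of its own list, so none of the 3 densities is shown to differ from it. Of the 150 kb tiles, 13.5% held more DHT peaks, 28.7% more FBS peaks and 4.79% more CSS peaks than this window. After merging overlapping peaks there were 13 regions, of which 2 held DHT and FBS peaks, 1 held FBS and CSS peaks, and 10 held a peak of 1 list only. No region of this window was called in all 3 lists, and no DHT peak overlapped a CSS peak.

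In DHT the strongest peak of the window lay on chromosome 16 from 184707 to 184926. Its fold enrichment was 8.66 and its −log10 q 10.5, at percentile 89.8 (rank 3492). It had no partner in FBS or CSS, and of all 46 peaks it alone had a −log10 q above 10. The CSS peak nearest to it, from 188311 to 188501, was 191 bp wide, at a fold enrichment of 4.79. In FBS the strongest peak lay from 231011 to 231307 (fold enrichment 4.72, −log10 q 7.27, percentile 87.2) and was called in no other list. A pair of FBS peaks, from 166703 to 166927 and from 167641 to 167889, was also called in FBS alone, at percentiles 30.8 and 33.0.

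Peaks shared between lists were moderate or weak. At 103733 to 103944 the DHT peak had a fold enrichment of 5.51 (percentile 41.1), and its FBS partner, from 103847 to 104108, had 4.11 (percentile 70.0), with summits 103 bp apart. At 128113 to 128374 the DHT peak had 5.58 (percentile 44.5), and the FBS partner had 3.04 (percentile 9.98), with summits 26 bp apart. The FBS peak from 203588 to 203997, at a fold enrichment of 3.89 (percentile 39.1), overlapped the CSS peak from 203913 to 204126, with 5.63 (percentile 45.3), by 85 bp. An FBS peak from 121799 to 122238 ended 7 bp before a CSS peak from 122246 to 122713 and was not counted as its partner.

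The remaining peaks were a CSS peak from 138199 to 138389 (fold enrichment 5.15), a CSS peak from 214503 to 214717 (4.99) and an FBS peak from 215645 to 215890. The last had a fold enrichment of 2.65 and ranked 124592 of 124868. In the gene table the order along this stretch is MPG, a DNA repair enzyme gene, NPRL3, whose introns are known to hold the alpha-globin enhancers, then HBZ, HBM, HBA2, HBA1, HBQ1 and the splicing gene LUC7L. That table is on another build, so peaks were not assigned to single genes, and a peak in this window is not evidence of one at HBA1 or HBA2. The stretch on hg19 from 215890 to 231011 held no peak of any list, nor did the stretch from 138389 to 166703. Other stretches between regions, such as 104108 to 121799, were empty as well. Of 15 kb tiles, about the length of the first, 14.0% held a DHT peak, 39.3% an FBS peak and 15.2% a CSS peak. An empty stretch of that length is thus the usual case in each list, and tiles of the length of the second were not counted.

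The BCL11A window held 1 DHT peak, 15 FBS peaks and 3 CSS peaks. When every list was limited to its strongest 34120 peaks, 2 of the FBS peaks were left, beside 1 DHT and 3 CSS peaks. At a −log10 q of at least 5, 4 FBS peaks, 1 DHT peak and 2 CSS peaks were left. Over the whole lists, 40.9% of FBS, 53.4% of DHT and 48.7% of CSS peaks reached that threshold. The FBS density was 73.9 per Mb (41.4 to 121.9), 1.81 times that of the whole FBS list (1.02 to 2.99). The DHT density was 4.93 per Mb (0.125 to 27.4), and the CSS density 14.8 (3.05 to 43.2), both with intervals that include their list averages. In tiles of 203 kb, 76.4% held at least 1 DHT peak, 88.2% an FBS peak and 79.0% a CSS peak. More peaks than at BCL11A were found in 53.8% of tiles in DHT, 15.3% in FBS and 25.7% in CSS. The FBS count here was therefore above the median tile, which held 7, but not extreme. FBS peaks were also dense above the window, with 71 in the next 1 Mb, and sparse below it, with 18, while DHT had 9 and 4 and CSS 9 and 9.

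At the start of BCL11A, 1 peak was called in CSS and 1 in FBS, but none in DHT. The rule places the gene from 60.678 to 60.781 Mb, to the nearest 1 kb, and BCL11A is read towards lower coordinates, so its start is at the upper end. A CSS peak from 60780866 to 60781103 covered that position. Its fold enrichment was 7.29 and its −log10 q 9.83, at percentile 85.1 (rank 5627), the highest of the 12 CSS peaks. An FBS peak from 60781204 to 60781421 lay 100 bp farther upstream without overlapping it, with a fold enrichment of 2.92, a −log10 q of 3.56 and percentile 30.6. DHT had no peak within 2 kb of the start. Tiles of 4 kb, the same length as that stretch, held a peak in 4.00% of cases in DHT, 14.1% in FBS and 4.39% in CSS. These tiles cover the whole genome and were not limited to gene starts. The DHT summit nearest to the BCL11A start lay 28.1 kb upstream.

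Inside the gene, FBS had 10 summits over 103 kb, DHT had none and CSS had 1, the peak at the start. By −log10 q, the FBS summits nearest the start were the strongest of these. By fold enrichment the peak 3.2 kb after the start, at 3.79, was below those 10.9 kb (5.67), 15.6 kb (5.23) and 60 kb (4.67) after it, among others. The peak 3.2 kb after it (60777699 to 60777977) had a −log10 q of 6.29 (percentile 80.7), the peak 10.9 kb after it (60769936 to 60770192) had 5.87 (76.2), and the peak 15.6 kb after it (60765290 to 60765543) had 5.04 (63.4). The other 7 lay 23.8 to 72.3 kb after the start, with −log10 q values of 2.21 to 4.16 and percentiles of 1.82 to 39.1. A further 2 FBS peaks lay beyond the end of the gene, 110.1 and 114.6 kb after the start, at percentiles 45.4 and 53.1, and 1 lay 15.8 kb upstream, at percentile 25.7. Of the 15 FBS peaks in the window, 1 overlapped a peak of another list, in a region upstream of the gene.

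The erythroid enhancer of BCL11A, known from red cell precursors, lies in the gene's intron 2 and is named for 3 elements 55, 58 and 62 kb after the start. Between 50 and 65 kb after the start, FBS had 2 peaks, DHT none and CSS none. Of all 15 kb tiles, 14.0% held at least 1 DHT peak, 39.3% at least 1 FBS peak and 15.2% at least 1 CSS peak. Most tiles thus held no DHT or CSS peak, and the absences do not set this stretch apart. The share of tiles with 2 or more FBS peaks was not counted, so the FBS count has no like background here. The FBS summits lay at 53.5 kb (60727319 to 60727672, fold enrichment 3.98, percentile 34.7) and at 60 kb (60720886 to 60721100, 4.67, percentile 39.1). The first was 1.5 kb from the 55 kb element and the second 2.0 kb from both other elements, distances that carry the rounding of the start to 1 kb. The second of these peaks was 215 bp wide, the smallest width in the FBS list to within 2 bp.

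A region upstream of BCL11A was the only place in its window called in all 3 lists. It held the DHT peak from 60808832 to 60809264 (fold enrichment 6.26, −log10 q 5.93, percentile 61.0), the FBS peak from 60808518 to 60809255 (5.11, 5.69, percentile 72.6) and the CSS peak from 60808781 to 60809144 (6.22, 5.95, percentile 60.6). The summits lay 28.1 kb upstream of the start in DHT, 28.1 in FBS and 28.0 in CSS, with the DHT and FBS summits 33 bp apart and the DHT and CSS summits 150 bp apart. At 738 bp the FBS peak was the widest of all 46 peaks. Of 17 merged regions in the window, the others were called in 1 list each, 14 in FBS and 2 in CSS. The other CSS peak, from 60648083 to 60648273, lay beyond the end of the gene and was weak (fold enrichment 4.34, percentile 12.2).

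**Figure D2:**
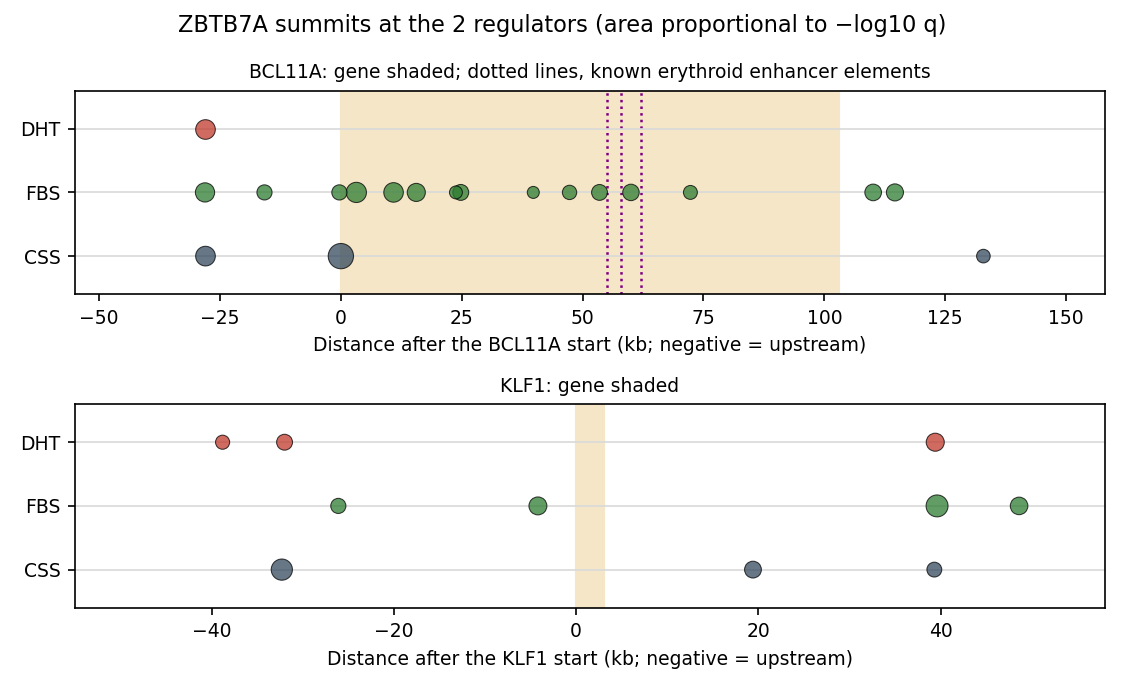
Summits of ZBTB7A peaks at BCL11A (top) and KLF1 (bottom) in the DHT, FBS and CSS lists, as distance in kb after the gene's start, negative upstream; each circle is 1 peak, its area is proportional to the −log10 q, and the gene is shaded. FBS circles run along BCL11A, with 2 of them beside the dotted lines at 55, 58 and 62 kb, while no circle falls on KLF1.

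The KLF1 window held 3 DHT, 4 FBS and 3 CSS peaks, all in the flanks and none within 2 kb of the start or inside the gene, which the rule places from 12.995 to 12.998 Mb. A gene of 3 kb gives little room for a call: 3.02% of 3 kb tiles held a DHT peak, 10.9% an FBS peak and 3.32% a CSS peak. An empty stretch of that length is thus the usual case. The tiles cover the whole genome, and the share over genes alone was not counted. Densities were 29.1 per Mb in DHT (6.01 to 85.1), 38.8 in FBS (10.6 to 99.4) and 29.1 in CSS (6.01 to 85.1), with intervals that include the list averages. In tiles of 103 kb, 57.8% held at least 1 DHT peak, 80.6% an FBS peak and 60.8% a CSS peak. The surroundings of KLF1 held many peaks. The 1 Mb below the window had 32 DHT, 76 FBS and 29 CSS peaks, and the 1 Mb above had 22, 46 and 21.

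The peak closest to KLF1 was an FBS peak from 13002000 to 13002362, with its summit 4.2 kb upstream of the start. It had a fold enrichment of 4.11, a −log10 q of 4.95 and percentile 58.5, and no partner in DHT or CSS. The next gene on that side in the gene table is GCDH, which encodes glutaryl-CoA dehydrogenase, and on the other side it is DNASE2. Without hg19 positions for these genes the peak was assigned to neither.

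Another region in the KLF1 window was called in all 3 lists, 39.3 to 39.6 kb after the start, beyond the gene's end. The DHT peak (12958502 to 12958741) had a fold enrichment of 5.79 and percentile 46.7, the FBS peak (12958265 to 12958578) 4.79 and percentile 87.7, and the CSS peak (12958554 to 12958744) 4.74 and percentile 18.4. The FBS peak was the strongest of the 27 FBS peaks by −log10 q (7.40), yet it overlapped the CSS peak by only 25 bp, with summits 307 bp apart. A region upstream of KLF1 held a DHT peak (13029877 to 13030156, fold enrichment 5.08, percentile 25.1) and a CSS peak (13030025 to 13030382, 6.66, percentile 70.1) that shared 132 bp, with summits 270 bp apart. The others were called in 1 list each: a DHT peak 38.8 kb upstream (percentile 12.5), FBS peaks 26.1 kb upstream (30.2) and 48.6 kb after the start (56.1), and a CSS peak 19.4 kb after the start (39.3).

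**Figure D3:**
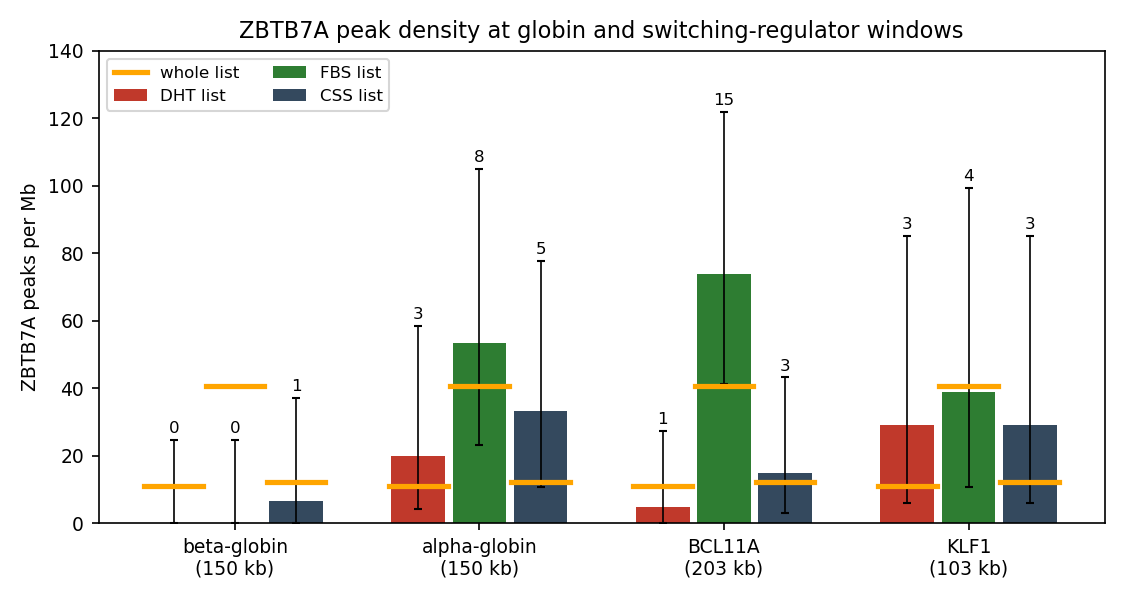
Bars show ZBTB7A peaks per Mb in each of the 4 windows for the DHT, FBS and CSS lists, with exact 95% Poisson intervals and the number of peaks above each; orange lines mark the average density of the whole list. The FBS list has 0 peaks at the beta-globin genes and 15 at BCL11A, against an average of 40.7 per Mb, and the intervals of all windows and lists other than those 2 include the line of their list.

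Over the 4 windows together, peak density was not shown to differ from that of the lists. It was 11.6 per Mb in DHT, 44.6 in FBS and 19.8 in CSS, or 1.05 (0.424 to 2.17), 1.09 (0.721 to 1.59) and 1.64 (0.847 to 2.86) times the list average. This sum joins unlike windows, since 15 of the 27 FBS peaks were at BCL11A and none at the beta-globin genes.

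Peaks at these genes lay mostly below the middle of their own lists, with 2 of 7 DHT, 10 of 27 FBS and 4 of 12 CSS peaks above it. Their median percentile by −log10 q was 44.5 in DHT, 36.1 in FBS and 37.2 in CSS. Median fold enrichments were 5.58 in DHT, 4.04 in FBS and 5.22 in CSS, against 5.70, 4.56 and 5.58 over the whole lists. By −log10 q, no peak in any list reached the highest 10% of its list. By fold enrichment the DHT peak of the alpha-globin window did, at percentile 91.4. Of the CSS peaks, 6 of 12 had the smallest width of the list to within 2 bp, against 26.2% over the whole CSS list. In DHT it was 1 of 7, against 24.8%, and in FBS 4 of 27, against 24.1%. These ranks, fold enrichments and widths rest on few peaks and are given without intervals. Whether they differ from the whole lists was not tested.

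**Figure D4:**
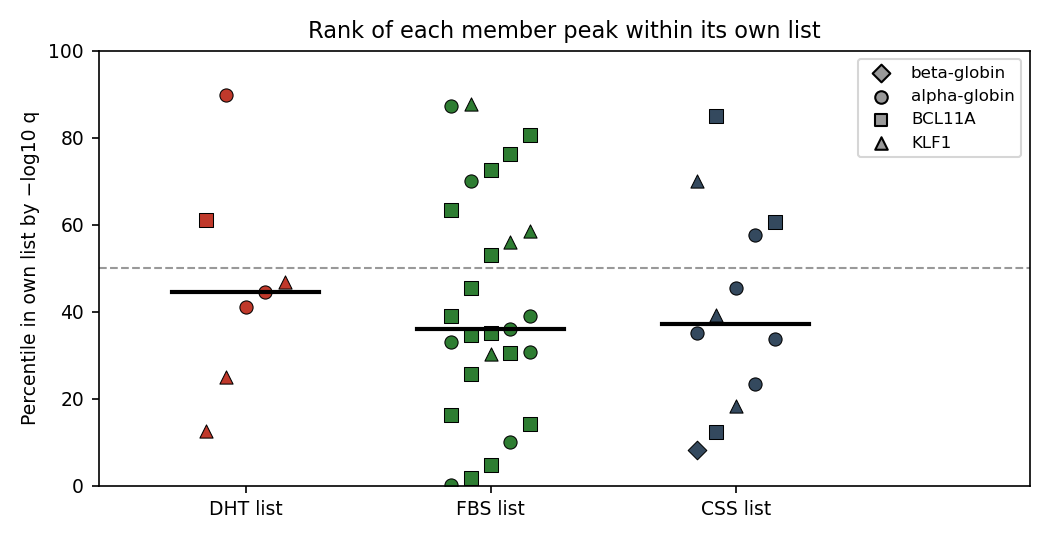
Percentile of each of the 46 peaks within its own list by −log10 q, for the DHT, FBS and CSS lists; symbols give the window, black bars the median and the dashed line the middle of the list. The medians lie at 44.5, 36.1 and 37.2, and the highest point is the DHT peak of the alpha-globin window at 89.8.

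The share of peaks found again in another list was not shown to differ from that of the whole lists. Of the 7 DHT peaks, 3 overlapped a CSS peak (42.9%, 9.90 to 81.6%), against 63.9% over the whole DHT list, and of the 12 CSS peaks 3 overlapped a DHT peak (25%, 5.49 to 57.2%), against 56.8%. Of the FBS peaks, 3 of 27 overlapped a CSS peak (11.1%, 2.35 to 29.2%, whole list 13.5%) and 4 overlapped a DHT peak (14.8%, 4.19 to 33.7%, whole list 13.3%). An FBS partner was present for 4 of the 7 DHT peaks (57.1%, 18.4 to 90.1%, whole list 48.2%) and 3 of the 12 CSS peaks (25%, 5.49 to 57.2%, whole list 44.1%). Each interval includes the share of its whole list, the one for CSS peaks with a DHT partner only just. Of 38 merged regions over the 4 windows, 2 were called in all 3 lists, at BCL11A and at KLF1, 4 in a pair of lists, 22 in FBS alone, 2 in DHT alone and 8 in CSS alone.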

How the data were processed

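Per the labels, chromatin was precipitated with a ZBTB7A antibody from R&D Systems and libraries were built with a ThruPLEX kit. MACS2 2.0.10.20131216, BWA 0.7.2-r351 and SAMtools 0.1.18, with hg19 (GRCh37) as the build, are named in the submitters' processing notes. Not given in the sources used here: control library, thresholds, filters, and any pooling of libraries. The deposited narrowPeak lists give for each peak a fold enrichment, a ratio over background by the authors, the −log10 q by the authors, and a score deposited by the authors. Intervals cover counting error, and the depth of the libraries is unknown.

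Windows were applied to summits. Positions count from a first base of 1. Partners overlapped by at least 1 bp, and counts equalled those of bedtools 2.31.1 for 6 of 6 ordered pairs of lists. Tiles are consecutive stretches of equal length. Density used the length of chromosomes 1 to 22 and X up to the last peak. Counts have Poisson and shares Clopper-Pearson intervals, both exact at 95%. Every peak in a window was eligible to be named, and BCL11A and KLF1 positions came from the window rule. Promoters and gene order came from RefSeq tables on GRCh38.p14; no coordinates were converted, and a planned list of other erythroid genes was not looked up because it needed hg19 gene positions. The code was tested on simulated data. The genes and windows were chosen with earlier results of these data known. Scripts ran under Python 3.11.15 with scipy 1.17.1, pandas 2.3.3, numpy 2.4.6 and matplotlib 3.10.9. Alternatives changed the peak threshold, list length, flank, placement, overlap rule, tiles and ranking.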

Additional observations from a re-analysis of the deposited data

How the results depend on the processing

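No paired analysis was possible because there is 1 list for the DHT libraries and 1 for the CSS libraries, although their labels share replicate numbers. Leaving out a library was not possible either. Over the alternatives, 78 values stayed within 1.5 times a reported count or within an interval around a reported value and 63 moved beyond it. For ranks and tile shares that interval is not printed here. Tile shares recounted only over tiles with a peak in any list rise by construction. At a −log10 q of at least 5, 53.4% of all DHT, 40.9% of all FBS and 48.7% of all CSS peaks remained. At a −log10 q of at least 10, 11.8%, 4.92% and 14.5% remained. The number of peaks over the 4 windows (7 in DHT, 27 in FBS, 12 in CSS) fell at the first threshold to 3 in DHT, 7 in FBS and 4 in CSS. At the second it fell to 1, 0 and 0. At a fold enrichment of at least 5 it was 6 in DHT, 3 in FBS and 7 in CSS. The shares of the whole lists at that fold enrichment were not counted. Median fold enrichments over the whole lists were 5.70 in DHT, 4.56 in FBS and 5.58 in CSS. With every list limited to its strongest 34120 peaks, the length of the shortest, FBS had 4, and BCL11A then had 2 FBS peaks in place of 15. With flanks of 100 kb at BCL11A and KLF1 there were 11 DHT, 42 FBS and 19 CSS peaks, and with 10 kb 3 DHT and 7 CSS peaks. At a −log10 q of at least 5, density relative to the list passed from above 1 to below it in DHT and FBS. It was 0.847 in DHT (in place of 1.05) and 0.694 in FBS (in place of 1.09). Both reported intervals include 1, but the FBS value lay below its reported interval of 0.721 to 1.59. In CSS it was 1.12 (in place of 1.64). With shared peaks defined by summits at most 100 bp apart, 0% of DHT peaks had a CSS partner and 0% of CSS peaks a DHT partner. When at least 50% of each peak had to overlap, 0% of FBS peaks had a CSS partner and 0% of CSS peaks an FBS partner. The shares of the whole lists under these stricter rules were not counted, so these values have no like background. Ranked by fold enrichment, the median FBS percentile was 28.8. Stricter thresholds, stricter overlap and other flanks change counts by construction. For the relative density and the ranking the cause was not tested.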
